A study of Mus musculus with 5 samples.

Results

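A list of 36 mouse DNA repair genes, divided by pathway, was read in the spleens of Sirt6 knockout mice. Members were all probes whose gene symbol was on the list, which gave 64 probes for 34 genes. Atr and Fancd2 had no probe in the annotation used here and were not analysed. The 34 genes were among 9000 genes with a value on all 5 arrays, and the annotation named 14654 genes in all. On each of the 5 arrays mutant spleen RNA in the Cy5 channel was set against pooled wild-type spleen RNA in the Cy3 channel, and the dyes were never swapped. The knockout group (S6-/-) had 2 arrays. The heterozygous group (S6-/- RA+/-) had 3 arrays of spleens that lacked Sirt6 and also carried 1 copy of Rela, so loss of Sirt6 was common to all 5 mutant spleens. Sirt6 encodes a chromatin-bound deacetylase, and Rela encodes the p65 subunit of NF-kB. For the mice, strain, age, sex and the making of the alleles are not stated in the sources used here. Values are read as log2 ratios of mutant over pool, so that a value below 0 means less signal in the mutant spleen, although neither the log base nor the direction is stated in the sources used here.

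Cells repair different kinds of DNA damage by different routes. Base excision repair removes small altered bases through a glycosylase, a nuclease that cuts the strand, a polymerase and a ligase. Nucleotide excision repair cuts out bulky lesions such as those made by ultraviolet light, and mismatch repair corrects errors of replication. Breaks of both strands are rejoined by end joining in any phase of the cell cycle, or copied from the sister chromatid by homologous recombination during and after DNA replication. In the spleen, end joining also closes the breaks of antibody class switching, which begin with removal of uracil from DNA. Many recombination and mismatch repair genes are transcribed most in dividing cells, whereas Ku and several nucleotide excision factors are present in resting cells too. Sirt6 has been tied to base excision repair and to the repair of double-strand breaks.

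Upstream sequences of 6 members are shown because they carry the contrasts described below, and were chosen after their values were seen. Xrcc6 and Xrcc5 encode the subunits of 1 heterodimer and differed in level relative to the pool, while Brca1, Brca2, Chek2 and Rad54l lay low on the knockout arrays and above the pool on heterozygous array 3. Each is the 250 bases before the annotated start in RefSeq, build GRCm38.p6, written 5′ to 3′ on the strand of the gene. Capitals mark matches on either strand to TTTCCCGC or TTTGGCGC, which are forms of the E2F binding site, or to CCAAT, the box bound by NF-Y.
Xrcc6, chr15:82016119-82016368, plus strand: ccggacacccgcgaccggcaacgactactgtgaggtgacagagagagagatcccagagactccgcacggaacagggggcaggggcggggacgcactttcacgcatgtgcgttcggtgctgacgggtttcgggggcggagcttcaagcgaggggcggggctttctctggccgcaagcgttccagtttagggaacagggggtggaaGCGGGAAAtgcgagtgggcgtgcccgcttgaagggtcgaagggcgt
Xrcc5, chr1:72307171-72307420, plus strand: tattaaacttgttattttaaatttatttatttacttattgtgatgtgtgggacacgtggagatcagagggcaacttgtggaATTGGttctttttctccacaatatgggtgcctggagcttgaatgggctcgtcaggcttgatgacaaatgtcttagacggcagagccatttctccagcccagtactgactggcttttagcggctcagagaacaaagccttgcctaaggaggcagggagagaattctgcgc
Brca1, chr11:101551956-101552205, minus strand: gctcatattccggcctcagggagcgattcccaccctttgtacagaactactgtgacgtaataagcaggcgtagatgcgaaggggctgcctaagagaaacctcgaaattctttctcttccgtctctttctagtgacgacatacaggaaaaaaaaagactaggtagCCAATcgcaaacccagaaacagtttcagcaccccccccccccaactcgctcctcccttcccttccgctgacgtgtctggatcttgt
Brca2, chr5:150522371-150522620, plus strand: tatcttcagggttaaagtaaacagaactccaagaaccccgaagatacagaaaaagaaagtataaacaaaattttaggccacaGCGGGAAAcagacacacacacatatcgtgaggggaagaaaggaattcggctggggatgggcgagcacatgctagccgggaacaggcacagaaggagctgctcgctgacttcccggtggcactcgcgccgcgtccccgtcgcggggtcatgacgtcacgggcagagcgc
Chek2, chr5:110839733-110839982, plus strand: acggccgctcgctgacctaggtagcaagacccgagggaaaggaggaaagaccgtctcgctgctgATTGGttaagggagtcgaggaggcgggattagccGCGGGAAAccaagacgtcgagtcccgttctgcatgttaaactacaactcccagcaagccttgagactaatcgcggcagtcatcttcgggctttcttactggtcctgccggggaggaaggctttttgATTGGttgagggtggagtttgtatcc
Rad54l, chr4:116123691-116123940, minus strand: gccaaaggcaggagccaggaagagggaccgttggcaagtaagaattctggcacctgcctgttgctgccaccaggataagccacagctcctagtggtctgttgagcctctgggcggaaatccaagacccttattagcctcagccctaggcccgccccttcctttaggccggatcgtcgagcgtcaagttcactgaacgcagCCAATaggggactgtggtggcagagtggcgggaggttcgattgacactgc
Of the 36 members, 28 had a window in the RefSeq table (the one listed first was taken). TTTCCCGC was found in 3 of the 28, those of Xrcc6, Brca2 and Chek2, and in 0.895% of all 32851 windows of that length. TTTGGCGC was found in 0 of the 28 and in 0.417% of all windows. CCAAT was found in 14 of the 28, Xrcc5, Brca1, Chek2 and Rad54l among them, and in 33.8% of all windows. The NF-kB consensus was found in 1 member window, that of Atr, and in 3.90% of all windows. In the sequences shown no match overlapped a match to another of these motifs. A match describes the letters of the window and says nothing of binding in these spleens.

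The arrays of a group did not all resemble each other, which bears on every value below. Across genes (no independent replicates) the correlation was 0.82 between the knockout arrays, and among the heterozygous arrays 0.34 (1 and 2), 0.21 (1 and 3) and -0.006 (2 and 3). With knockout arrays 1 and 2 it was 0.39 and 0.59 for the library labelled heterozygous 1, higher than with either other heterozygous array. It was 0.46 and 0.38 for heterozygous array 2, and -0.16 and -0.017 for heterozygous array 3. Rela lay at 1.15 on the library labelled heterozygous 1, near the 0.48 and 1.08 of the knockout arrays, and at -0.084 and -0.20 on the other heterozygous arrays, so the Rela signal of that library went against its label, which was kept. Directions drawn from the heterozygous group carry this doubt. Sirt6 had a single value, on heterozygous array 2 (-4.31), and the knockout could not be checked. In whole spleen, fewer cells of a type and less RNA per cell cannot be told apart. The labelled tissue was not checked against its markers, because a ratio to a pool of the same tissue does not give a level. All tests were made with limma over all 9000 genes, and a value after ± is its standard error, for which all 5 arrays were used. The series calls its samples biological replicates and does not say how many animals gave them, so a p-value covers no more than the spread among these arrays.

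Some of the probe values are missing, and this changed what several genes showed. Of the 64 probes, 54 had a value on all 5 arrays, 8 had 1 to 4 values and 2 had none. The 8 partly measured probes belonged to 8 genes, Prkdc, Xrcc1, Mutyh, Exo1, Nbn, Atm, Chek1 and Blm, each of which also had a fully measured probe. Averaging all probes of a gene then mixes different probes on different arrays. Blm, the helicase gene mutated in Bloom syndrome, is an example: probe 26049 read 1.54 on heterozygous array 3, probe 12130 had its single value there (-2.10), and their mean was -0.28. For these 8 genes the arrays are therefore given from the fully measured probes, and for those whose result turned on the choice the values of all probes averaged are given too. That choice was made after the data were seen.

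**Figure D1:**
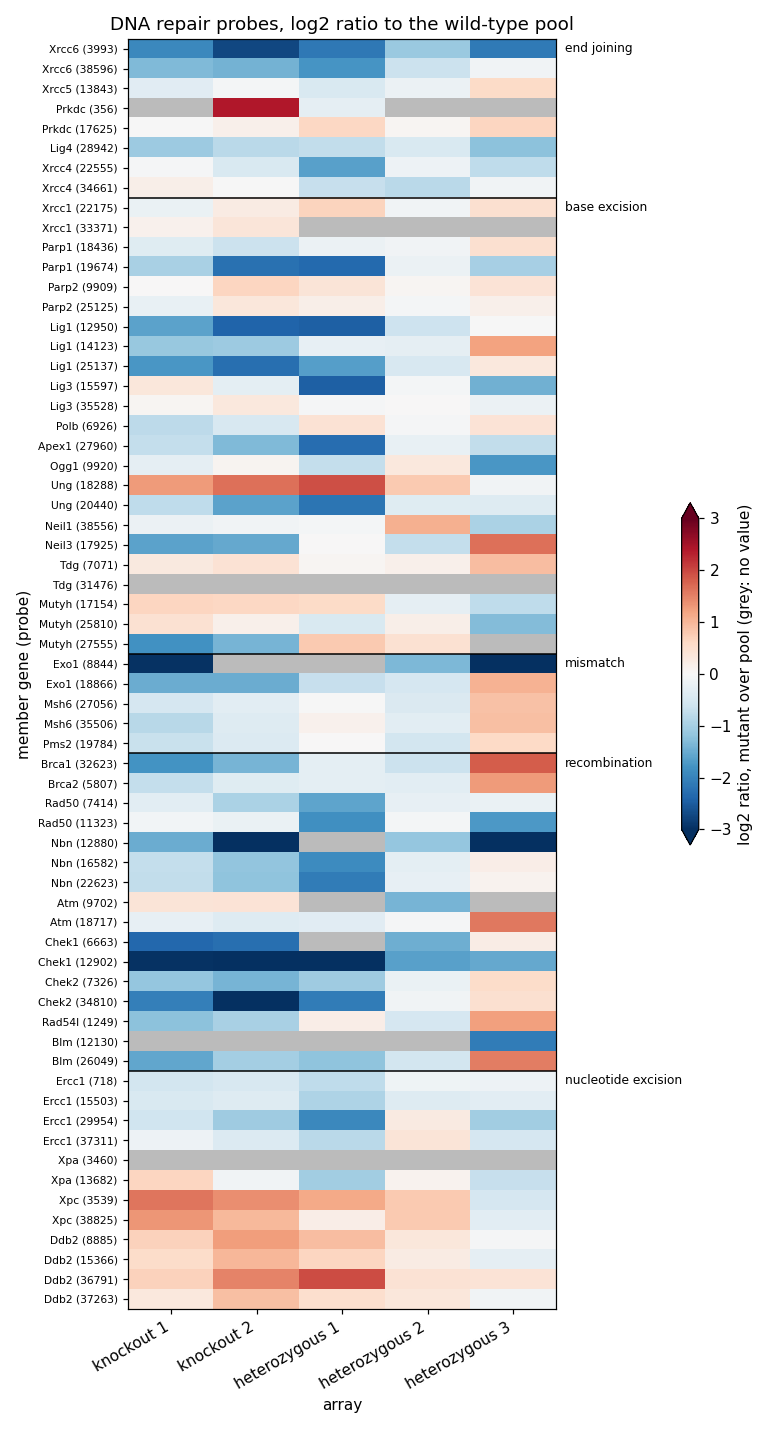
Log2 ratio to the wild-type pool (colour, limited to the range -3 to 3) for all 64 probes of 34 DNA repair genes (rows, with probe number) on 5 arrays (columns), grouped by pathway; grey cells had no value. Most recombination and mismatch repair probes are blue on both knockout arrays and red on heterozygous array 3, whereas the probes of Xpc and Ddb2 are red on both knockout arrays.

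End joining begins with Ku, the heterodimer of the Xrcc6 and Xrcc5 products that binds broken ends. Xrcc6 lay below the pool on every array, at -1.63 and -2.07 on the knockout arrays and at -1.95, -0.87 and -1.10 on heterozygous arrays 1, 2 and 3. The groups overlapped. Its knockout mean was -1.85 ± 0.39 (n = 2, limma adjusted p = 0.106) and its heterozygous mean -1.31 ± 0.32 (n = 3, limma adjusted p = 0.218), neither past the threshold. Both Xrcc6 probes lay below 0 on all 5 arrays, probe 3993 between -1.10 and -2.72 and probe 38596 between -0.094 and -1.76. Xrcc5, the partner subunit, stayed near the pool, at -0.34 and -0.053 in the knockout and at -0.46, -0.18 and 0.56 in the heterozygotes. The heterodimer's genes therefore lay apart relative to the pool, although the difference between the genes was not tested.

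Ku recruits the kinase encoded by Prkdc, and the ends are sealed by DNA ligase IV (Lig4) with its cofactor Xrcc4. Lig4 lay below the pool on all 5 arrays, at -1.09 and -0.81 in the knockout and -0.73, -0.47 and -1.22 in the heterozygotes. Its means were -0.95 ± 0.34 (n = 2) and -0.81 ± 0.28 (n = 3), with limma adjusted p of 0.199 and 0.370. Xrcc4 lay at 0.060 and -0.23 in the knockout and lower, at -1.16, -0.48 and -0.43, in the heterozygotes, which did not overlap. That difference was -0.60 ± 0.45 (limma adjusted p = 0.769). Prkdc was near or above the pool by its complete probe, from -0.019 to 0.16 in the knockout and from 0.051 to 0.66 in the heterozygotes. Its other probe read 2.41 on knockout array 2 and -0.26 on the library labelled heterozygous 1, its only values, and lifted the knockout mean from 0.072 to 0.63.

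Base excision repair was divided, with 13 members and a median near the pool in both groups (-0.14 and -0.053). The glycosylases, which cut out the damaged base, went separate ways. Neil3, which acts on oxidised bases and is expressed mainly in dividing cells, lay at -1.60 and -1.54 on the knockout arrays and at 0.017, -0.71 and 1.66 in the heterozygotes. The groups did not overlap, and the difference was 1.89 ± 0.73 (limma adjusted p = 0.523). Neil1, a related enzyme, lay at -0.18 and -0.095 in the knockout and at -0.068, 1.08 and -0.95 in the heterozygotes. Ogg1, which removes 8-oxoguanine, lay between -0.28 and 0.33 except at -0.71 on the library labelled heterozygous 1 and at -1.74 on heterozygous array 3. Mutyh, which removes adenine opposite 8-oxoguanine, lay by its complete probes at 0.55 and 0.39 in the knockout and at 0.059, -0.048 and -1.03 in the heterozygotes. Its groups did not overlap with these probes, whereas with all its probes averaged they did and the knockout mean changed from 0.47 to -0.22. Tdg, which removes thymine mispaired with guanine, was above the pool on all 5 arrays, from 0.059 to 0.92.

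Ung, the uracil glycosylase used in class switching, showed opposite values by probe. Probe 18288 read 1.28 and 1.66 on the knockouts and 1.93, 0.78 and -0.10 in the heterozygotes. Probe 20440 read -0.77 and -1.60, and -2.19, -0.36 and -0.38. The gene mean of 0.14 in the knockout is thus the average of 1.47 and -1.18 and describes neither probe. Which transcripts the probes detect is not stated in the sources used here. Of the 15 members with more than 1 complete probe, only Ung and Xrcc4 had probes on opposite sides of the pool in the knockout mean, and for Xrcc4 those means were -0.25 and 0.075. In the heterozygous mean 3 of the 15 had such probes, Ung, Parp1 and Lig1. In the heterozygous minus the knockout mean 3 had probes of opposite sign, Ung, Parp2 and Ercc1.

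After the glycosylase, the product of Apex1 cuts the strand. Apex1 lay below the pool on all 5 arrays, at -0.72 and -1.33 in the knockout and at -2.28, -0.23 and -0.73 in the heterozygotes. Polb, the gap-filling polymerase, lay at -0.78 and -0.49 in the knockout and at 0.42, -0.045 and 0.41 in the heterozygotes. The Polb groups did not overlap (difference 0.89 ± 0.42, limma adjusted p = 0.604). The ligases of the pathway differed. Lig1, which also joins Okazaki fragments in replication, lay at -1.50 and -1.92 in the knockout and at -1.46, -0.46 and 0.50 in the heterozygotes, with a knockout mean of -1.71 ± 0.49 (n = 2, limma adjusted p = 0.145). All 3 of its probes lay below 0 on both knockout arrays, whereas their heterozygous means ran from -1.03 to 0.22. Lig3, the ligase that partners Xrcc1, lay at 0.21 and 0.0060 in the knockout and at -1.24, -0.028 and -0.80 in the heterozygotes.

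Strand breaks are sensed by the poly(ADP-ribose) polymerases and gathered by the scaffold protein of Xrcc1. Parp1, the main such enzyme, lay below the pool on all 5 arrays, at -0.66 and -1.44 in the knockout and at -1.25, -0.14 and -0.25 in the heterozygotes. Its 2 probes differed, with knockout means of -0.50 and -1.60 and heterozygous means of 0.068 and -1.16. The first of them, probe 18436, read 0.48 on heterozygous array 3, so by itself it did not lie below the pool there. Parp2, its relative, lay between -0.11 and 0.49 on the knockout arrays and between 0.00 and 0.28 in the heterozygotes. Xrcc1 was also near or above the pool, from -0.20 to 0.25 in the knockout and from -0.11 to 0.66 in the heterozygotes. Thus Parp1 and Lig1 lay low in the knockout while Parp2, Xrcc1 and Lig3 did not, again without a test between genes.

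Mismatch repair had 3 members, and all 3 lay below the pool on both knockout arrays and above it on heterozygous array 3 by their complete probes. With all probes averaged, 2 of the 3 lay above it on heterozygous array 3. Exo1, the nuclease that removes the strand with the error, lay at -1.48 and -1.49 in the knockout and at -0.69, -0.51 and 1.04 in the heterozygotes, which did not overlap. With its complete probe the knockout mean was -1.48 ± 0.48 (n = 2, limma adjusted p = 0.169) and the difference 1.43 ± 0.61 (limma adjusted p = 0.603). With both Exo1 probes averaged the groups overlapped, the knockout mean was -1.86 (limma adjusted p = 0.110), the heterozygous mean moved from -0.055 to -1.20 and the difference was 0.66 ± 0.56 (limma adjusted p = 0.795). A second Exo1 probe, 8844, read -2.97 on knockout array 1 and -5.00 on heterozygous array 3, where the first probe read 1.04. Msh6, which recognises the mismatch, lay at -0.68 and -0.35 in the knockout and at 0.060, -0.38 and 0.89 in the heterozygotes. Pms2, which nicks the strand, lay at -0.66 and -0.40, and at 0.019, -0.56 and 0.60.

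Recombination, crosslink repair and damage signalling held the members with the lowest knockout means, and its heterozygous arrays lay on both sides of the pool. All 9 measured members lay below the pool on both knockout arrays by their complete probes, as did 3642 of all 8969 genes. On heterozygous array 3, 7 of 9 lay above it, as did 4412 of all 8969 genes. With all probes averaged the counts were 8 and 5 of 9, against 3768 and 4307 of all 9000 genes. Brca1, which starts resection of the break and brings in Brca2, lay at -1.78 and -1.40 in the knockout and at -0.28, -0.64 and 1.82 in the heterozygotes. The groups did not overlap, and the difference was 1.89 ± 0.78 (limma adjusted p = 0.558). Without heterozygous array 3 the difference of Brca1 was 1.13. Brca2, which acts in the strand exchange step, lay at -0.72 and -0.37 in the knockout and at -0.30, -0.33 and 1.27 in the heterozygotes. Rad54l, a motor protein that assists strand invasion, lay at -1.24 and -0.96, and at 0.20, -0.51 and 1.24. Its groups did not overlap (difference 1.41 ± 0.60, limma adjusted p = 0.573). Blm, the helicase that dissolves joined chromosomes, lay at -1.56 and -1.01, and at -1.22, -0.55 and 1.54 by its complete probe, where the groups overlapped. The Blm knockout mean of -1.29 had a limma adjusted p of 0.306 by that probe and 0.145 with both probes averaged, and the difference was 1.22 and 0.61.

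The checkpoint kinases had the lowest knockout means of the 34 members. Chek1, which holds the cell cycle when replication stalls, lay at -2.97 and -3.91 in the knockout and at -6.13, -1.64 and -1.53 in the heterozygotes by its complete probe. It was below the pool on all 5 arrays there, and its other probe read -2.35 and -2.27 in the knockout and 0.23 on heterozygous array 3. The Chek1 means were -3.44 ± 1.08 (n = 2, limma adjusted p = 0.168) and -3.10 ± 0.89 (n = 3, limma adjusted p = 0.298) by the complete probe, and -2.87 and -2.78 with both probes. Chek2, which signals breaks from Atm, lay at -1.60 and -2.31 in the knockout and at -1.58, -0.16 and 0.51 in the heterozygotes. Its knockout mean was -1.96 ± 0.53 (n = 2, limma adjusted p = 0.131), and both of its probes lay below 0 on both knockout arrays. Atm, the kinase that senses breaks, lay by its complete probe near the pool on 4 arrays, from -0.40 to -0.034, and at 1.58 on heterozygous array 3. Its other probe read 0.38 and 0.40 on the knockout arrays and -1.39 on heterozygous array 2, its only values. With both Atm probes averaged the knockout mean changed from -0.315 to 0.040, and heterozygous array 2 read -0.71.

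Rad50 and Nbn encode parts of the complex that first binds and trims a break. Both were lowest on the library labelled heterozygous 1, as Chek1 was, but for Nbn this held only by its complete probes. With all 3 Nbn probes averaged, knockout array 2 (-2.001) was as low as that library (-1.994). Rad50 lay at -0.21 and -0.58 in the knockout and at -1.72, -0.15 and -0.96 in the heterozygotes. Nbn lay at -0.73 and -1.20, and at -1.99, -0.26 and 0.15, by its complete probes. Its other probe was lower, at -3.61 on knockout array 2 and -3.58 on heterozygous array 3. The Nbn knockout mean was -0.96 by the complete probes (limma adjusted p = 0.349) and -1.49 with all 3 averaged (limma adjusted p = 0.158). Mre11a, the nuclease of the same complex and not a member of the list, lay at -0.70 and -0.81 in the knockout and at -0.93, -0.13 and 0.48 in the heterozygotes.

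The nucleotide excision members were divided. Xpc, which recognises distorted DNA, lay at 1.46 and 1.17 in the knockout and at 0.66, 0.78 and -0.42 in the heterozygotes. Its knockout mean of 1.32 ± 0.40 (n = 2, limma adjusted p = 0.158) was the highest of the 34 members, and both probes lay above 1 or near it, at 1.49 and 1.14. The Xpc groups did not overlap, with a difference of -0.97 ± 0.52 (limma adjusted p = 0.647). Ddb2, which finds ultraviolet lesions and hands them to Xpc, lay at 0.56 and 1.16 in the knockout and at 1.00, 0.34 and 0.0030 in the heterozygotes. All 4 of its probes lay above 0 on both knockout arrays and on heterozygous arrays 1 and 2. Xpa, which verifies the lesion, lay at 0.64 and -0.12, and at -1.03, 0.095 and -0.68. Ercc1, part of the nuclease that makes the 5′ cut, lay at -0.43 and -0.58, and at -1.11, 0.029 and -0.50, and its 4 probes were all below 0 on both knockout arrays. Xpc and Ddb2 were thus above the pool on both knockout arrays, Ercc1 below it and Xpa on both sides.

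**Figure D2:**
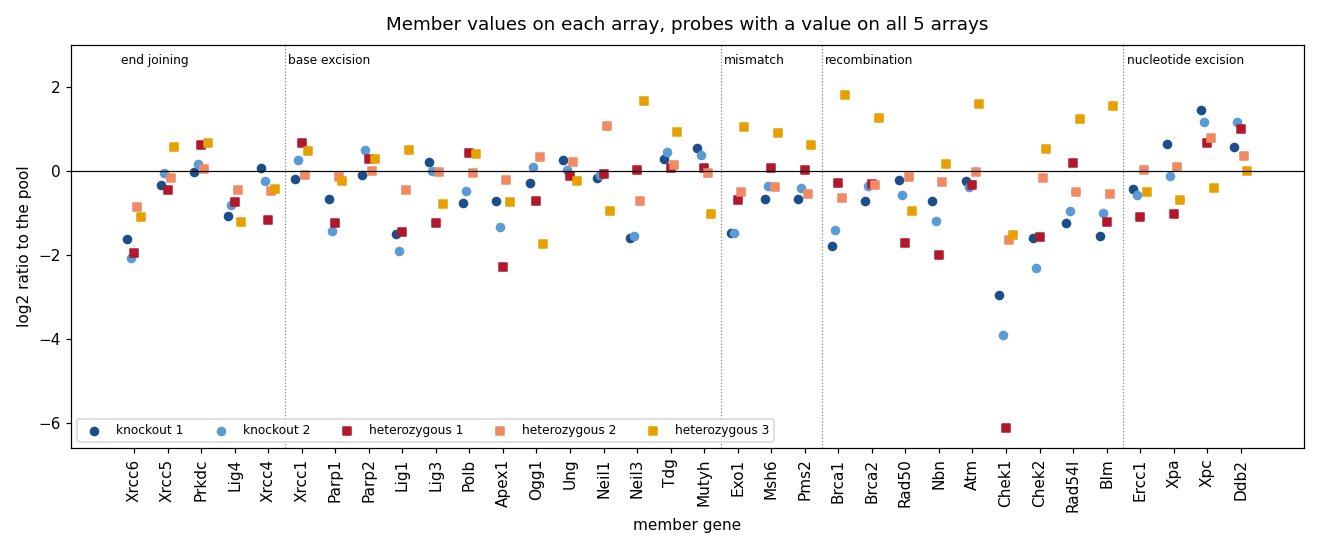
Log2 ratio to the pool (vertical axis) of each of the 34 genes (horizontal axis, by pathway) on 2 knockout arrays (circles) and 3 heterozygous arrays (squares); each point is 1 array, averaged over the probes with a value on all 5 arrays. Chek1 is the lowest gene, at -6.13 on the library labelled heterozygous 1, and the squares of heterozygous array 3 lie above 0 for most recombination and mismatch repair genes.

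Taken as a list, the repair genes lay lower than genes in general in the knockout. The median of the 34 knockout means was -0.51, against -0.032 for all 9000 genes. By array the median was -0.55 and -0.40 in the knockout with complete probes. The knockout mean lay below 0 for 24 members and above it for 10, where the background over all genes was 51.6% and 48.4%. Both knockout arrays lay below the pool for 22 of 34 members, against 41.9% of all genes, and both lay above it for 6, against 39.6%. Single arrays read below the pool for 26 members on knockout array 1 (50.8% of all genes) and for 24 on knockout array 2 (51.4%). Limma called 0 members at an adjusted p under 0.05, where the background was 0%, with a smallest adjusted p of 0.106, for Xrcc6. At an unadjusted p under 0.05 there were 11 members on the lower side, against 10.6% of all genes, and 1 on the higher side, Xpc, against 9.82%. The 11 were Xrcc6, Lig4, Parp1, Lig1, Neil3, Exo1, Brca1, Nbn, Chek1, Chek2 and Blm. Leaving out knockout array 1 gave a list median of -0.38, and leaving out knockout array 2 gave -0.55. Each leaves 1 array in the group, so no count is given. Complete probes gave 10 members on the lower side, against 870 of all 8969 genes. With complete probes Nbn (limma unadjusted p = 0.122) and Blm (0.0887) were no longer among them and Rad54l (0.049, against 0.0502 before) was. The lower side held 14 members when the spread came from the 2 knockout arrays only. The share of all genes at that unadjusted threshold is not given here, so the 14 cannot be set against a background. There 15 members also had a limma adjusted p under 0.05, with 3321 genes called in all (36.9%).

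In the heterozygous group the list median was -0.13, against -0.020 for all genes, and it depended on the array. The group mean lay below 0 for 19 members and above it for 15, against 51.2% and 48.8% of all genes. Below the pool were 22 members on the library labelled heterozygous 1 (52.5% of all genes), 24 on array 2 (45.4%) and 18 on array 3 (52.1%). With complete probes the member medians were -0.40, -0.16 and 0.22 on heterozygous arrays 1, 2 and 3. With all probes averaged the last was -0.25, so its sign rested on the partly measured probes. Limma called 0 members at an adjusted p under 0.05, against 0.322% of all genes. At an unadjusted p under 0.05 there were 8 members lower, against 8.00% of all genes, and 0 higher, against 5.06%. They were Xrcc6, Lig4, Xrcc4, Apex1, Exo1, Rad50, Nbn and Chek1, and with complete probes there were 6, against 707 of all 8969 genes. Without the library labelled heterozygous 1 there were 4, for which the share of all genes is not given here, and the list median was 0.022. Without arrays 2 or 3 the median was -0.42 and -0.40. Values below the pool on all 5 arrays were found for 9 members, against 9.69% of all genes. They dropped to 6 with complete probes, namely Xrcc6, Lig4, Parp1, Apex1, Rad50 and Chek1, where 824 of all 8969 genes lay so. For Parp1 this held for the mean of its 2 probes. Its probe 18436 read 0.48 on heterozygous array 3.

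The question of whether losing a copy of Rela moved these genes is addressed by the heterozygous minus the knockout mean, in which the pool and the dye cancel. The median difference was 0.15 over the members and 0.026 over all genes, or 0.29 over the members with complete probes. It was positive for 22 of 34 members, against 51.5% of all genes, and negative for 12, against 48.5%. Limma called 0 members at an adjusted p under 0.05, against 0% of all genes. The members under an unadjusted p of 0.05 were Neil3 and Brca1, 2 of 34 on the higher side (background 3.48%), and 0 were on the lower side (background 5.34%). The heterozygous arrays all lay above both knockout arrays for 7 members, Lig1, Polb, Neil3, Brca1, Brca2, Chek2 and Rad54l, against 14.4% of all genes. They all lay below for Xrcc4, Lig3 and Xpc, 3 members, against 13.8%. With complete probes Exo1 joined the first set and Mutyh the second. By pathway the median difference was 0.61 for recombination, 0.66 for mismatch repair, 0.14 for end joining, 0.017 for base excision and -0.61 for nucleotide excision repair. All 3 mismatch members had a positive difference. All 4 nucleotide excision members had a negative one, but that of Ercc1 was -0.017 and turned to 0.092 with quantile normalization and 0.057 with scaling to one median absolute deviation. With 1 array left out the median over all members ran from 0.10 to 0.39, the latter without the library labelled heterozygous 1. The limma unadjusted p was under 0.05, on the higher side, for 4 members without that library and 3 without heterozygous array 2. It was so for 2 members without heterozygous array 3 and 0 with replicate number as a block. Only the heterozygous group has a replicate 3, so the block also leaves that array out of the difference. The shares of all genes under these settings are not given here.

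**Figure D3:**
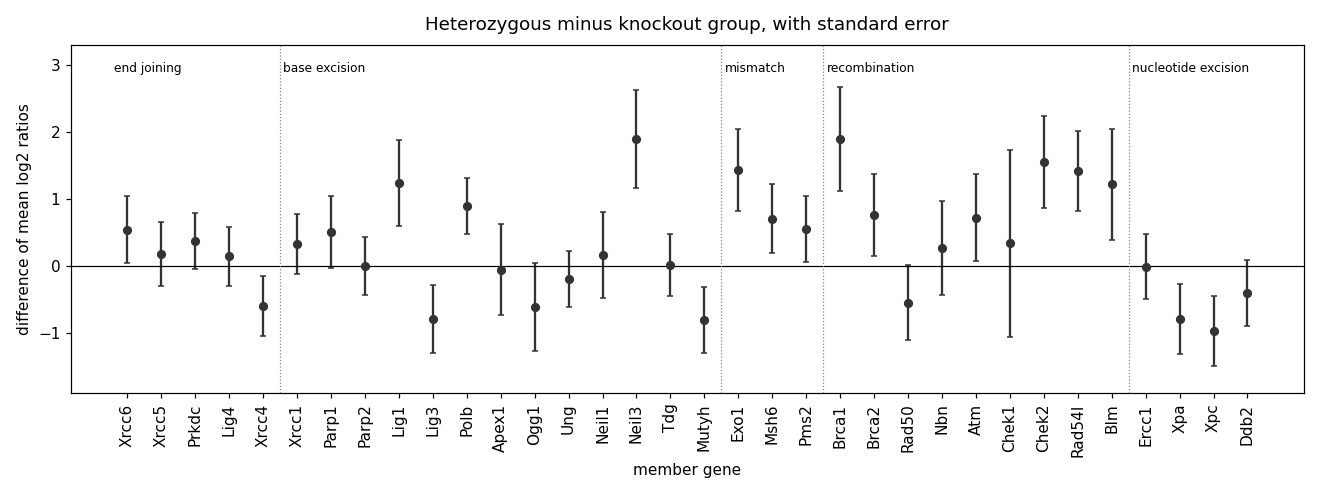
Difference of mean log2 ratios, heterozygous minus knockout (vertical axis), for each of the 34 genes (horizontal axis, by pathway), with bars of 1 standard error from limma (3 and 2 arrays); the 8 genes with a partly measured probe are shown from their complete probes. Neil3 and Brca1 have the largest positive differences, both 1.89, and Xpc has the most negative one, -0.97.

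Further genes of these pathways, 87 on a list that left out the members, gave 65 tested genes described in the same way. Their median was -0.43 in the knockout and -0.073 in the heterozygotes, and the median difference was 0.46. At an unadjusted p under 0.05, 16 of the 65 lay lower in the knockout and 0 higher, against 10.6% and 9.82% of all genes, and limma called 0 at an adjusted p under 0.05. In the difference 6 of the 65 were higher and 0 lower, against 3.48% and 5.34% of all genes. Of the 34 further recombination and signalling genes, 30 lay below the pool in the knockout mean (median -0.76), against 51.6% of all genes. On heterozygous array 3 5 of these 34 lay below it, against 52.1% of all genes. The 12 further nucleotide excision genes had a knockout median of -0.074 with all probes averaged and of 0.23 with complete probes, so its sign rested on the partly measured ones.

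Among these genes Pcna, the clamp of replication and repair polymerases, lay at -1.88 and -1.78 in the knockout and at -1.53, -0.13 and 2.88 in the heterozygotes. Fen1, the flap nuclease that acts with Lig1, lay at -1.39 and -1.28, and at -0.45, -0.31 and 1.38. Polq, the polymerase of an alternative end joining route, lay at -2.24 and -1.59, and at -1.84, -0.59 and 1.29. All 3 were highest on heterozygous array 3. H2afx, the histone that marks breaks, lay at -1.32 and -1.07, and at -0.62, -0.83 and 0.90. Rpa1, which coats single-stranded DNA, lay at -0.58 and -0.28, and at 0.34, 0.098 and 1.57. Fanca, of the crosslink repair core complex, lay at -0.83 and -0.49, and at 1.20, -0.30 and 1.39. In contrast Msh3, a mismatch recognition gene, lay between -0.30 and 0.18 on the 5 arrays. Of the nucleotide excision genes, the helicase Ercc2 was above the pool on all 5 arrays (0.090 to 1.49), as was the nuclease Ercc5 (0.30 to 1.76), and the lesion sensor Ddb1 lay from -0.088 to 0.95. Of the 12 further nucleotide excision genes, 6 lay below the pool in the knockout mean and 6 above it. Ercc4, which encodes the partner of Ercc1 in its nuclease, lay above the pool on all 5 arrays (0.14 to 1.28), and Gtf2h5, a subunit of the factor that opens the DNA, lay below it on all 5 (-0.86 to -2.84). Both were named after their values were seen. Trp53bp1, which favours end joining, lay from -0.0040 to 1.68. Bard1, the partner of Brca1, was chosen after its values were seen. It had a knockout mean of -2.86 and a difference of 3.08 ± 0.71 (limma adjusted p = 0.329), against -1.59 and 1.89 for Brca1.

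Markers of dividing and of red cells moved with these genes. Of 33 proliferation markers such as Top2a, Cdk1 and the Mcm helicase subunits, 28 were tested. Their medians on complete probes were -1.53 and -1.98 in the knockout and -1.65, -0.45 and 1.02 on heterozygous arrays 1, 2 and 3, and heterozygous array 3 was the highest of 5 arrays for all 28. It was the highest for 8 of 9 recombination members and 3 of 3 mismatch members, but for 0 of 4 nucleotide excision and 3 of 13 base excision members. With all probes averaged it was the highest for 7 of 9 recombination and 2 of 3 mismatch members, with the other counts unchanged. Over all genes with all probes averaged, that array was the highest for 28.2%. The 18 erythroid markers had medians of -2.82 and -2.56 in the knockout and of -0.89, -0.62 and 1.59 in the heterozygotes, again with array 3 the highest for all 18. The proliferation marker Mki67 was not analysed here. The part of cell division and of red cell precursors in the values of the repair genes was not tested.

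Other cell types of the spleen differed between the arrays too. On the knockout arrays the medians were -0.83 and -1.38 for 9 B cell markers, 0.23 and -0.15 for 9 T cell markers, 1.30 and 0.82 for 8 macrophage markers, and 2.06 and 0.88 for 11 neutrophil markers. On heterozygous arrays 1, 2 and 3 the medians were -0.043, -0.21 and -0.99 for B cells, and 0.32, 0.72 and -0.88 for T cells. They were -0.098, 0.59 and 0.002 for macrophages, and -0.73, 1.11 and -0.59 for neutrophils. For 7 markers of the exocrine pancreas they were -2.22 and -2.69 in the knockout and 0.94, -0.27 and -1.39 on heterozygous arrays 1, 2 and 3, so the heterozygous arrays differed among themselves in each list. None of these lists had heterozygous array 3 as its highest array for any member, unlike the proliferation and erythroid lists. The part of these cell types in the repair gene values was not tested.

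**Figure D4:**
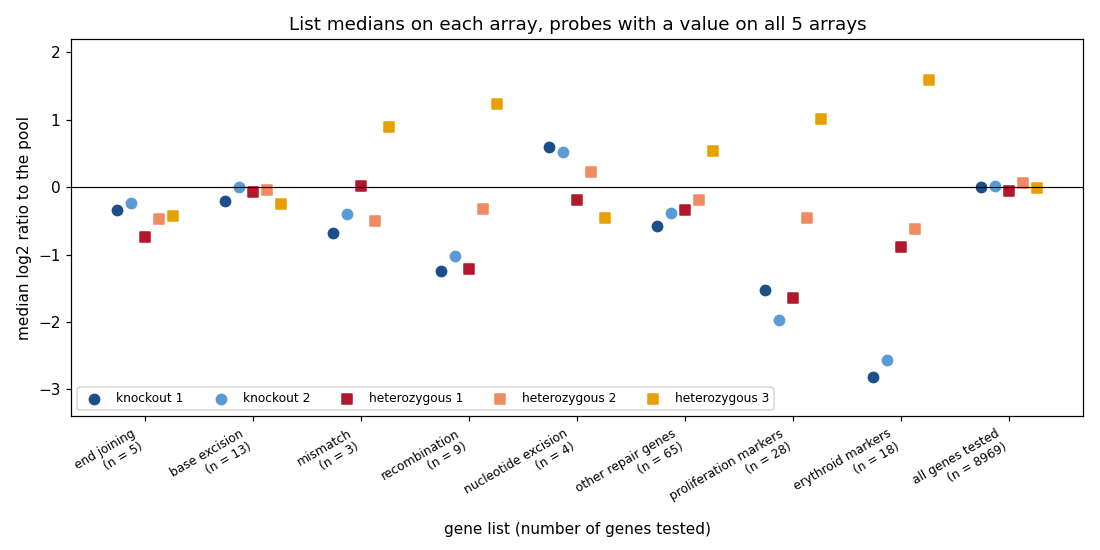
Median log2 ratio to the pool (vertical axis) of each gene list (horizontal axis, with the number of genes tested) on 2 knockout arrays (circles) and 3 heterozygous arrays (squares), over probes with a value on all 5 arrays. Recombination genes lie at -1.24 and -1.02 on the knockout arrays and at -1.22, -0.33 and 1.24 on heterozygous arrays 1, 2 and 3. Proliferation markers lie at -1.53 and -1.98, and at -1.65, -0.45 and 1.02, while base excision genes stay near 0.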

How the data were processed

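Spleen RNA of each mutant (Cy5) was hybridised with a wild-type pool (Cy3), per the labels. The table deposited by the authors holds values read as log2 ratios. For their base, direction, normalization and blank cells, nothing is stated in the sources used here. Intensities were not analysed, so depth cannot be given, and the number of arrays limits the precision. Each array was centred on its median (deposited medians from -0.039 to 0.004), and probes of a gene were averaged. Probes were named by the GEO platform annotation (22204 of 38784 named 1 gene). The 9000 genes with values on all 5 arrays were fitted with limma 3.58.1 (R 4.3.3) on group means with a shared spread (3 residual and 3.63 prior degrees of freedom), 2-sided, with Benjamini-Hochberg adjustment over all genes at 0.05. The fit was tested on simulated data. The pool counts as 1 control sample, so tests against it leave out the spread of wild-type spleens and keep any dye bias.

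All members were named, and 17 further repair genes were fixed by role. The members and lists were chosen with earlier results of these data known, so counts and medians describe them and no list was tested. Alternatives were no centring, quantile normalization, scaling to 1 median absolute deviation, genes missing 1 heterozygous array, single probes, robust eBayes, a group's own arrays, a replicate block, each array left out and, added later, complete probes only. Plots used matplotlib 3.10.9 (Python 3.11.15).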

Additional observations from a re-analysis of the deposited data

Results flagged for a closer look

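Lig3, the ligase that partners Xrcc1, lay above the pool on both knockout arrays (0.21 and 0.0060) and below it on all 3 heterozygous arrays (-1.24, -0.028 and -0.80). It was singled out because the groups lay on opposite sides of the pool. The difference was -0.80 (limma adjusted p = 0.698), and the values 0.0060 and -0.028 were close to 0. The knockout means of its 2 probes were 0.024 and 0.19, and the heterozygous means -1.32 and -0.059, so the difference was larger by probe 15597. That probe read 0.35 and -0.30 on the knockout arrays, so by itself it did not lie above the pool on both.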

How the results depend on the processing

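Limma called 15 members in the knockout (adjusted p under 0.05) with only the arrays of that group, where the spread rests on 2 arrays and 36.9% of all genes were called, and 0 in each of the 3 comparisons under the other alternatives run. The median over the members ran, with 1 array left out, from -0.547 to -0.384 in the knockout, from -0.422 to 0.022 in the heterozygotes (above 0 without the library labelled heterozygous 1) and from 0.104 to 0.394 in the difference. The replicate numbers were not shown to pair the samples. Across genes, knockout array 1 minus 2 correlated at -0.476 with heterozygous array 1 minus 2, the opposite sign to a pairing by number. With the replicate block the difference had 0 members called, a median of 0.181 and 42 genes called in all, against 0 without it. Of 1224 values of single members under the alternatives, 62 changed sign, 41 of them with an array left out, and the cause was not tested. Without centring the difference was -0.009 for Tdg. With quantile normalization the heterozygous mean was 0.009 for Xrcc5, 0.013 for Ung and -0.066 for Pms2 and the difference was 0.036 for Parp2, 0.075 for Apex1 and 0.092 for Ercc1. With scaling to one median absolute deviation the heterozygous mean was 0.005 for Xrcc5 and -0.076 for Pms2 and the difference was 0.026 for Parp2, 0.025 for Apex1, -0.026 for Mutyh and 0.057 for Ercc1. With the replicate block the difference was -0.123 for Xrcc5, -0.266 for Tdg, -0.564 for Atm and -0.970 for Chek1. The block takes heterozygous array 3 out of the difference, as only that group has a replicate 3. These differences are therefore the same as those with that array left out. With complete probes only, an alternative added after the data were seen, the knockout mean was 0.471 for Mutyh and -0.315 for Atm and the difference was 0.372 for Prkdc and -0.812 for Mutyh. With 1 array left out, the knockout mean ran from -0.280 to 0.089 for Ogg1, -0.116 to 0.638 for Xpa, -0.019 to 1.288 for Prkdc, -0.232 to 0.060 for Xrcc4, -0.040 to 0.300 for Xrcc1 and -0.110 to 0.493 for Parp2. With 1 array left out, the heterozygous mean ran from -0.318 to 0.194 for Xrcc5, -0.956 to 0.021 for Lig1, -0.869 to 0.175 for Chek2, -0.507 to 0.504 for Neil1, -0.186 to 0.042 for Ung, -0.349 to 0.840 for Neil3, -0.455 to 0.213 for Mutyh, -0.158 to 0.477 for Msh6, -0.270 to 0.312 for Pms2, -0.460 to 0.766 for Brca1, -0.314 to 0.482 for Brca2, -0.525 to 0.622 for Atm and -0.156 to 0.718 for Rad54l. With 1 array left out, the difference ran from -0.030 to 0.346 for Lig4, -0.484 to 0.542 for Apex1, -0.266 to 0.164 for Tdg, -0.295 to 0.272 for Ercc1, -0.991 to 0.315 for Prkdc, -0.307 to 0.296 for Parp2, -0.232 to 0.787 for Nbn, -0.970 to 1.769 for Chek1, -0.235 to 0.433 for Mutyh, -0.372 to 0.640 for Neil1, -0.123 to 0.390 for Xrcc5 and -0.564 to 0.583 for Atm. Signal over background is not given by these ratios, so which low values it limits cannot be said.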
